A study of Equus caballus with 19 samples.

Results

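Interferon-stimulated genes encode the antiviral and signalling proteins that cells make after interferon binds its receptors. A list of 36 of them was followed in equine tenocytes exposed to interleukin-1β (IL-1β), the cytokine whose effect on tendon cells the study examined. The members were picked by gene name, and 35 of the 36 names were rows of both expression tables, out of 29196 gene names in each. IFIT2 was not under its name and is not analysed here. Tenocytes were primary cells of the superficial digital flexor tendon of Thoroughbred horses, labelled wild type throughout, each line from a different donor, and they were grown for 14 days in gels of bovine type I collagen, a culture that lacks the architecture and the other cells of a tendon. The first batch held 5 lines (lines 1 to 5), each grown without IL-1β (control) or exposed to 1 nM of it. The second batch held 3 other lines (lines 6 to 8), each grown under those 2 conditions and also under 1 nM IL-1β plus 100 ng/ml of the interleukin-1 receptor antagonist IL1Ra, a protein that occupies the IL-1 receptor without signalling. All values are normalised read counts, that is, read counts that the authors had divided by a size factor per library, and each batch was normalised by itself, so levels are compared only within a batch.

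Type I interferons signal through the receptor chains IFNAR1 and IFNAR2, and interferon gamma through IFNGR1 and IFNGR2. Both routes activate transcription factors that switch on the interferon-stimulated genes. The products sense viral RNA (DDX58, which encodes RIG-I, IFIH1 and DHX58), amplify the response (STAT2, IRF1, IRF7, IRF9), attach or remove the ubiquitin-like protein ISG15, block translation or degrade RNA (the IFIT and OAS proteins, EIF2AK2), or hold virus particles at the membrane (BST2). IL-1β signals mainly through NF-κB and is not itself an interferon, although IRF1 among them is also known as an NF-κB target.

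The normalised counts of a library summed to between 43393903 and 49197980 for the first batch, and for the second to between 24964149 and 34602014. All 35 members passed the filter on low values (at least 10 normalised counts in 5 libraries of the first batch, or in 3 of the second). Some libraries stood apart for the whole gene set. In the first batch the IL-1β library of line 3 was the highest of the 5 IL-1β libraries for 30 of 35 members. Line 7 with IL1Ra was the highest of the 3 IL1Ra libraries for all 35 members, and the highest of all 9 libraries of its batch for 32. Results that rest on these libraries are given with and without them.

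The plainest feature of the gene set was the difference between tenocyte lines in the controls, which were grown without IL-1β to day 14. Each line had 1 control library, so the controls alone cannot tell a difference between lines from one between cultures. In the first batch lines 1 and 2 both lay above lines 3, 4 and 5 for 32 of 35 members, an order seen in 22.2% of all genes tested, and the 3 exceptions were HERC5, ADAR and ZC3HAV1. Line 1 was the highest control library for 32 members, and line 5 the lowest for 24. Among the 3 lines of the second batch, line 8 was the highest, line 7 the next and line 6 the lowest control library for all 35 members. Lines 7 and 8 stood above line 6 in 38.3% of all genes tested.

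ISG15, the ubiquitin-like protein that names one branch of the response, was chosen after its values were seen to show this order. Its control libraries held 4179, 3587, 810, 617 and 522 normalised counts in lines 1 to 5. In lines 6 to 8 they held 310, 5849 and 9055. Lines 1 and 2 were thus the high lines of the first batch, and lines 7 and 8 those of the second.

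The spread between control lines, taken as the SD of log2(normalised count + 1), had a median of 0.93 over the members in the first batch and of 0.28 over all genes tested, and 88.8% of all genes had a smaller SD than the members' median. The corresponding medians of the second batch were 1.90 for the members and 0.37 for all genes. The highest control library exceeded the lowest by a median of 5.56-fold over the members in the first batch, against 1.62-fold over all genes, and by 12.5-fold in the second batch, against 1.63-fold. ADAR, which edits adenosine in double-stranded RNA, varied least, with an SD of 0.19 in the first batch. XAF1 varied most in the first batch, with an SD of 3.03 and one control library listed at 0, and BST2 most in the second, with an SD of 5.10.

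**Figure D1:**
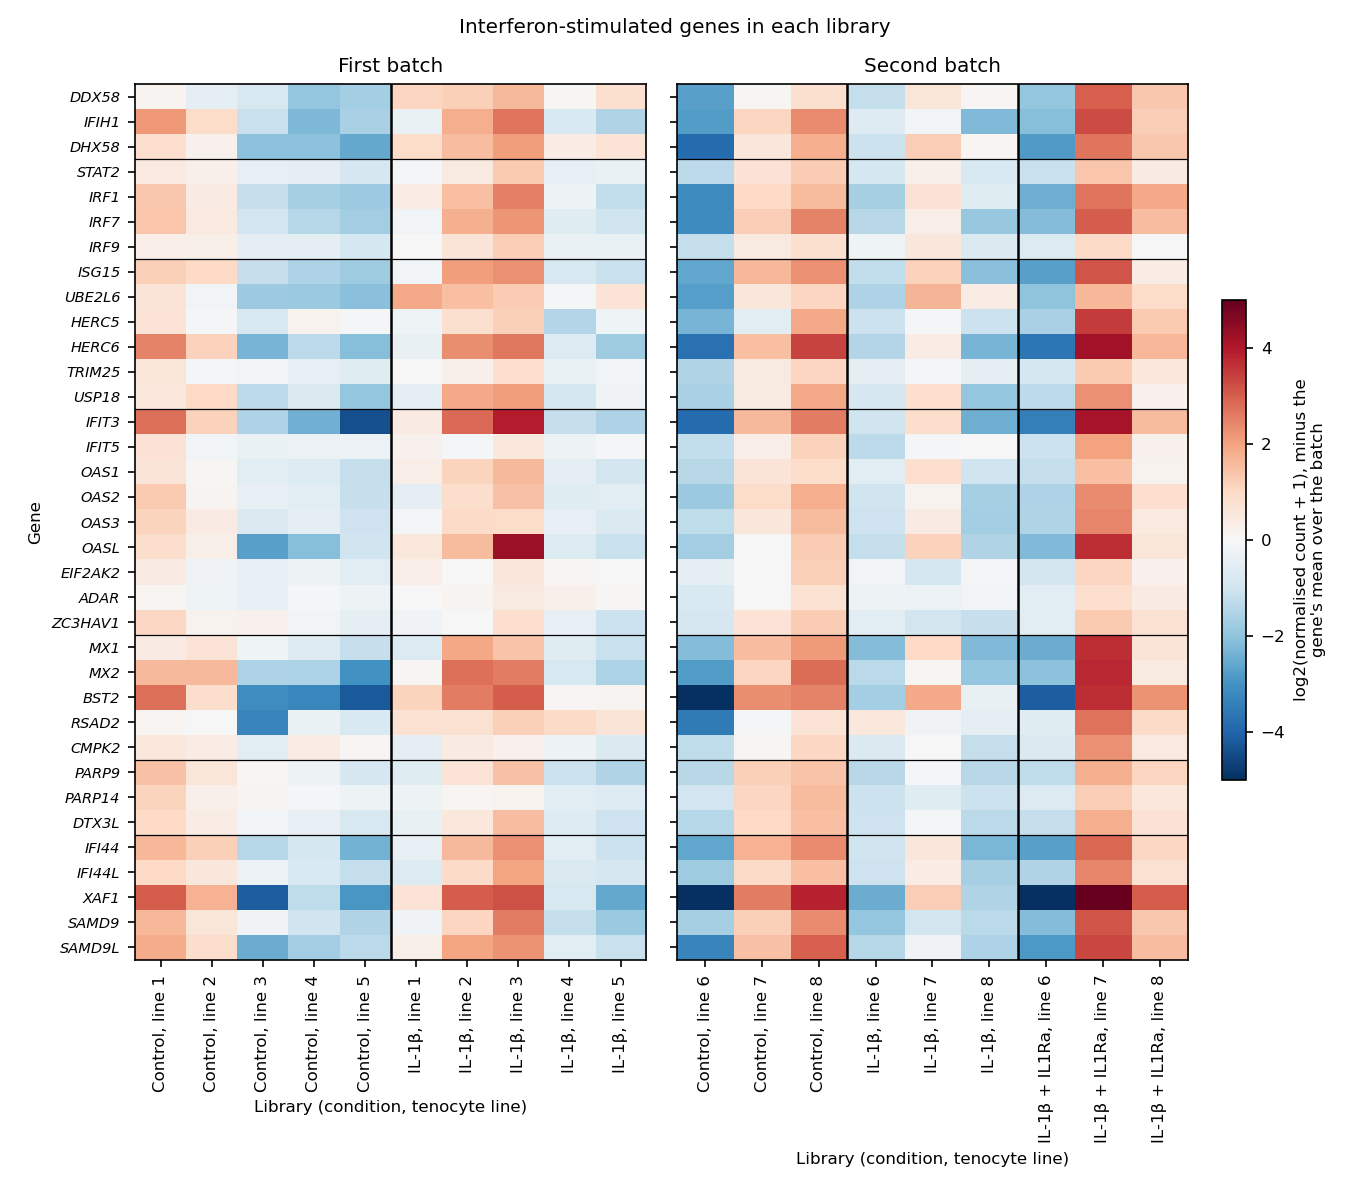
Each row is 1 of the 35 interferon-stimulated genes, grouped by role between horizontal lines, and each column 1 library, 10 at left (first batch) and 9 at right (second batch). Colour is log2(normalised count + 1) minus the gene's mean over its batch, ending at 5 in either direction; control libraries of lines 1, 2, 7 and 8 are red for most genes and those of lines 3, 4, 5 and 6 blue, and the IL1Ra library of line 7 is the deepest red.

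Whether IL-1β moved the gene set was asked first in the 5 lines of the first batch. With IL-1β, 4 of the 35 members rose (DDX58, DHX58, UBE2L6 and RSAD2) and none fell, where a call needed an adjusted p below 0.05 and a change of at least 1 on the log2 scale in limma. Over all 14719 genes tested, 12.8% were called in either direction and 4.91% were called higher. The 4 called members made 11.4% of the 35, which is below the share for both directions and above the share for higher genes. With the tenocyte line as a block in the model the same 4 were called, beside 16.2% of all genes in either direction. The fitted change was above 0 for 31 of 35 members, and its median was 0.68, against a median of -0.0034 over all genes tested. The members' median was 0.07 without line 3 and 0.93 without line 1.

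DDX58 encodes the cytoplasmic receptor RIG-I, which recognises viral RNA ends. Its control libraries held 3713, 2515, 1961, 887 and 1051 normalised counts in lines 1 to 5, and its IL-1β libraries 7237, 7712, 10598, 3585 and 6001. Every line was higher with IL-1β, and the ranges overlapped because the IL-1β library of line 4 lay below the control of line 1. The fitted change was 1.91 ± 0.41 (SE) on the log2 scale, or 3.75-fold (limma with Benjamini-Hochberg adjustment, adjusted p = 0.00655). It was the only member that stayed called whichever line was left out.

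DHX58 encodes LGP2, a regulator of the RIG-I and MDA5 sensors. It held 446, 290, 59.7, 58.5 and 41.3 normalised counts in the controls of lines 1 to 5 and 471, 726, 1073, 320 and 398 with IL-1β. Lines 2 to 5 were higher with IL-1β, with line 3 the highest, while the 2 values of line 1 were close. The change was 2.24 ± 0.67 (limma, adjusted p = 0.0298), and the call was lost without line 3, 4 or 5, where the change was 1.77, 2.20 or 1.99.

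UBE2L6 is the conjugating enzyme that passes ISG15 to its targets. Its controls held 2281, 1347, 417, 411 and 347 normalised counts and its IL-1β libraries 5483, 4190, 3537, 1362 and 2357. All 5 lines were higher with IL-1β, and the IL-1β library of line 4 remained below the control of line 1. The change was 2.09 ± 0.57 (limma, adjusted p = 0.0197), and the call was lost without line 3 or 5, where it was 1.85 or 1.93.

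RSAD2 encodes viperin, an enzyme that makes a chain-terminating nucleotide. It held 322, 308, 29.3, 237 and 177 normalised counts in the controls and 508, 518, 696, 582 and 469 with IL-1β. It was the only member whose IL-1β libraries all lay above all control libraries, 1 of 35, while in 19.5% of all genes tested the groups did not overlap in one direction or the other. The change was 1.72 ± 0.57 (limma, adjusted p = 0.0441), and the call was lost when line 1, 2, 4 or 5 was left out and kept without line 3, where the change was 1.03. It was also lost with no filter on low values and without the variance trend of the model, at the same change.

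**Figure D2:**
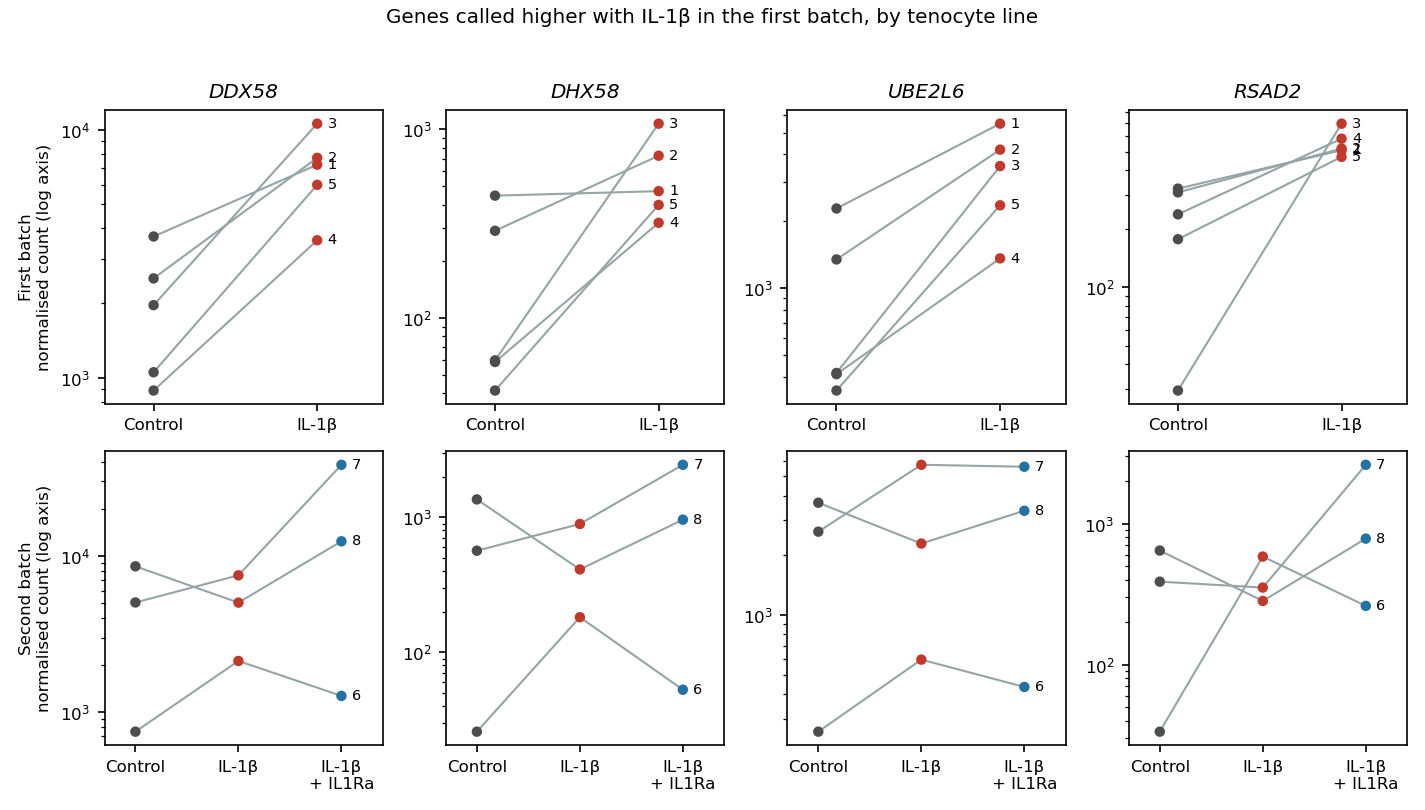
Normalised count (log axis) of DDX58, DHX58, UBE2L6 and RSAD2 in each tenocyte line, numbered at the right, with grey lines joining the libraries of one line; the upper row is the first batch and the lower row the second. In the upper row every line goes up with IL-1β. In the lower row the control levels of lines 7 and 8 start far above that of line 6. Line 8 goes down from control to IL-1β for all 4 genes and up again with IL1Ra.

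These 4 were also the only members higher with IL-1β in all 5 lines. No member was lower in all 5, and 31 went up in some lines and down in others. Among all genes tested, 24.8% were higher in all 5 lines and 25.0% lower, beside 11.4% and 0% of the members, shares that were not tested against each other.

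The remaining sensor, IFIH1 (MDA5, which binds long double-stranded RNA), shows the mixed pattern. It held 268, 111, 27.0, 11.6 and 18.5 normalised counts in the controls and 46.2, 211, 383, 34.2 and 20.4 with IL-1β. It was lower with IL-1β in line 1 and higher in the other 4 lines, most of all in line 3. Lines 1 and 3 differed in this way for most of the list.

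Taking each line by itself, line 1 was lower with IL-1β for 31 of 35 members, 20 of them by at least 2-fold, with a median log2 ratio of -1.17. In line 3 all 35 members were higher, 28 by at least 2-fold, with a median of 2.43. Line 2 was higher for 33 members with a median of 0.91. Lines 4 and 5 were higher for 26 and 27 members, with medians of 0.30 and 0.35. Over all genes tested the median log2 ratio lay between -0.02 and 0.02 in each of the 5 lines. With IL-1β the order of the lines had therefore changed: line 3, which had been among the low control lines, was the highest for 30 members, and line 1 for only 1.

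**Figure D3:**
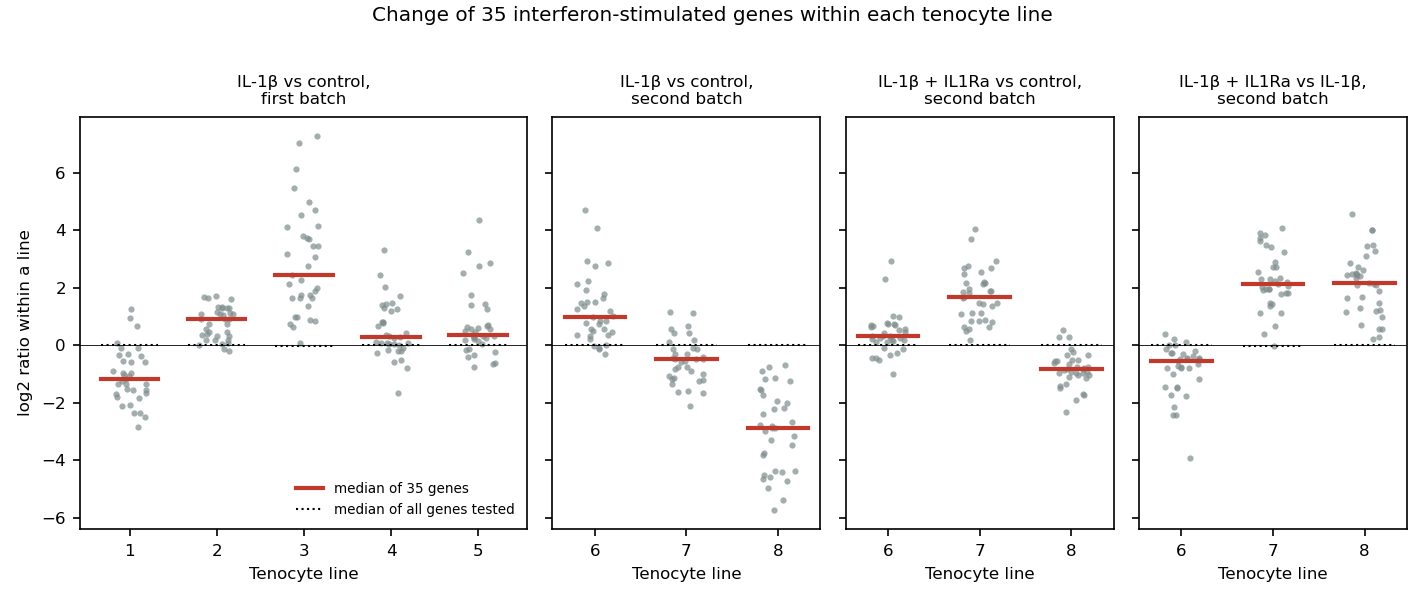
Each point is the log2 ratio of 1 of 35 interferon-stimulated genes within 1 tenocyte line, for the comparison named above the panel; the red bar is the members' median and the dotted line the median of all genes tested. The medians run from -1.17 in line 1 to 2.43 in line 3 in the first batch, and line 8 lies at -2.87 with IL-1β while the medians of all genes stay near 0.

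Of the members not called in the first batch, BST2, OASL and IFIT3 had the 3 highest fitted changes. BST2 encodes tetherin, which holds budding virus at the cell surface. Its controls held 803, 218, 13.0, 11.4 and 5.51 normalised counts and its IL-1β libraries 254, 706, 967, 121 and 131. All lines but line 1 were higher, and the change of 2.76 ± 1.30 did not pass the test (limma, adjusted p = 0.141), although BST2 was called without line 1, at 3.86.

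OASL, an OAS-like protein that boosts RIG-I signalling, did not exceed 36.8 normalised counts outside the IL-1β library of line 3. It held 22.0, 14.3, 0.92, 1.90 and 5.39 normalised counts in the controls and 17.2, 36.8, 251, 6.93 and 4.78 with IL-1β, a change of 1.86 ± 1.06 (limma, adjusted p = 0.220). IFIT3, which with other IFIT proteins binds foreign RNA, held 922, 311, 46.6, 25.1 and 5.51 in the controls and 181, 984, 2093, 61.4 and 46.5 with IL-1β. Line 1 was lower and the other 4 lines higher, and the change of 1.78 ± 1.46 did not pass the test (limma, adjusted p = 0.399).

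The 3 lowest fitted changes belonged to PARP14, PARP9 and ZC3HAV1, all of the poly(ADP-ribose) polymerase family. PARP14 held 8629, 4762, 4391, 3918 and 3387 normalised counts in the controls and 3417, 4364, 4600, 2763 and 2557 with IL-1β. It was lower in 4 of 5 lines, all but line 3, and its change was -0.46 ± 0.26 (limma, adjusted p = 0.206). PARP9, which works in a complex with the ubiquitin ligase DTX3L, held 4943, 2713, 1867, 1466 and 984 in the controls and 1152, 2824, 4824, 848 and 623 with IL-1β.

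The PARP9 values were lower in line 1 and higher in line 3, and the change of -0.42 ± 0.59 was smaller than its error. ZC3HAV1, the zinc-finger antiviral protein that marks viral RNA for decay, held 1462, 792, 825, 639 and 508 normalised counts in the controls and 615, 695, 1276, 533 and 330 with IL-1β, with a change of -0.34 ± 0.36. ADAR differed from the rest in its small spread. It held 2101, 1678, 1459, 1823 and 1650 normalised counts in the controls and 1974, 2166, 2669, 2326 and 2034 with IL-1β, and its change of 0.36 ± 0.12 passed the test (limma, adjusted p = 0.0425) but not the size a call needed. With the line as a block the adjusted p of ADAR was 0.0618.

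By role, the sensors had a median fitted change of 1.91 with 2 of 3 called in the first batch. The transcription factors had a median of 0.69 with 0 of 4 called, and the genes of the ISG15 system one of 0.89 with 1 of 6 called. The RNA-binding effectors had a median of 0.36 over 9 genes with none called. The membrane and nucleotide effectors (MX1, MX2, BST2, RSAD2, CMPK2) had 1.18 with 1 of 5 called, and IFI44, IFI44L, XAF1, SAMD9 and SAMD9L 0.73 with none. PARP9, PARP14 and DTX3L had -0.42, the only role with a median below 0 over the 5 lines. Without line 3 the medians in this order of roles were 1.77, 0.24, 0.18, 0.23, 0.44, -0.07 and -0.59, so that IFI44, IFI44L, XAF1, SAMD9 and SAMD9L then also had a median below 0, an alternative added after seeing the data.

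**Figure D4:**
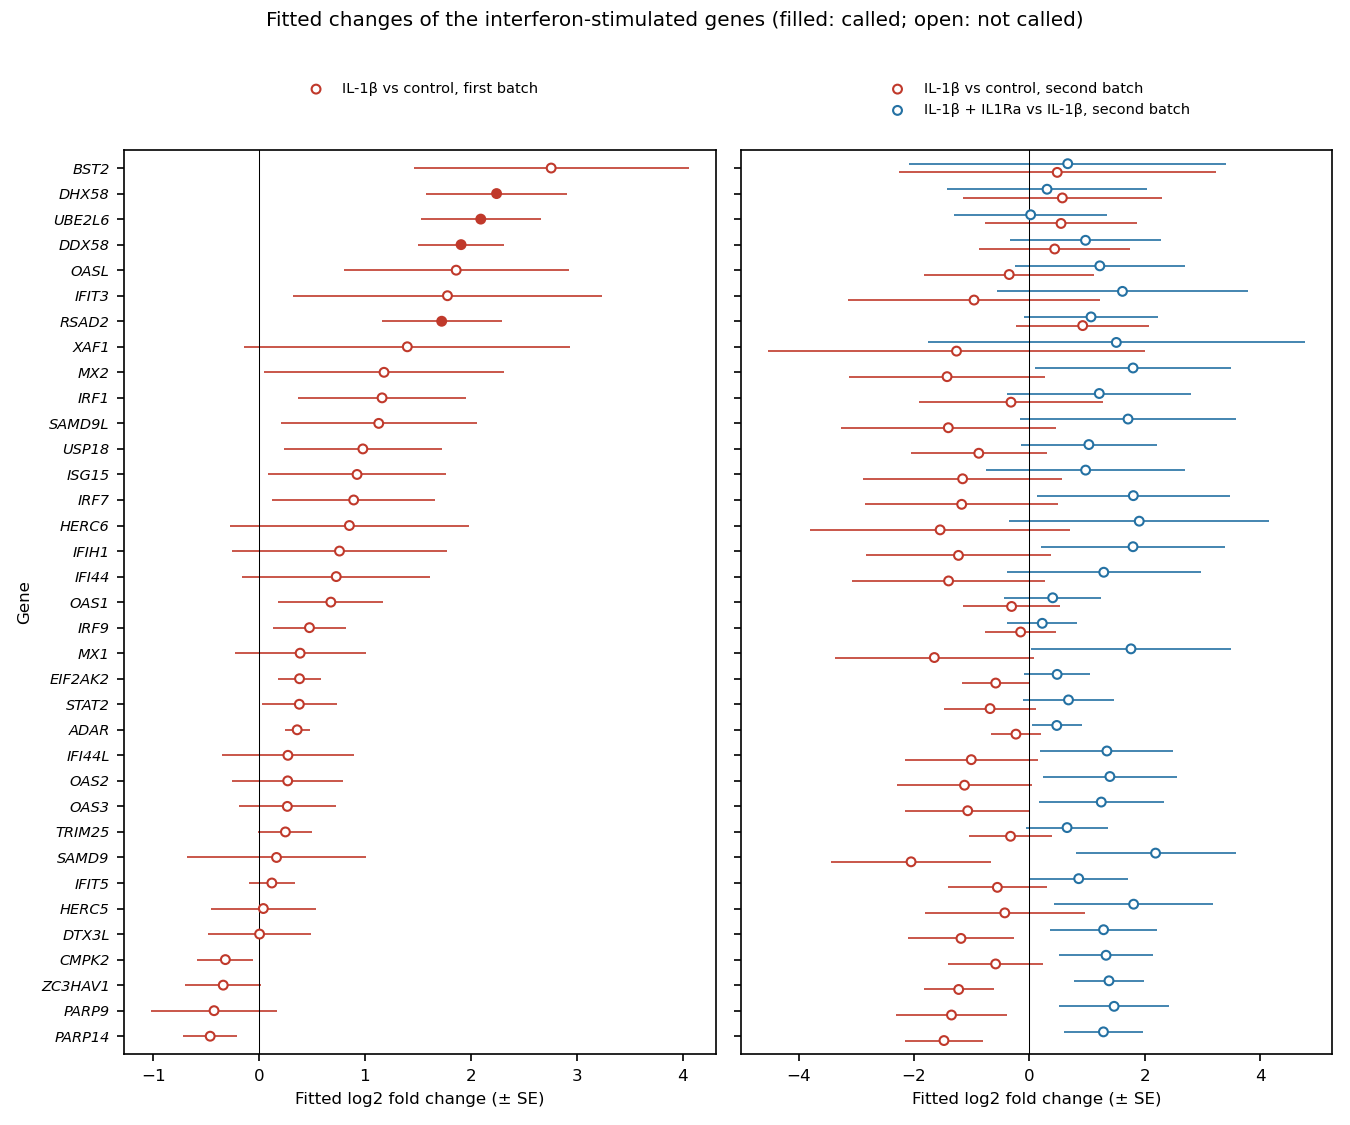
Fitted log2 fold change with its SE for 35 genes, ordered by the first batch; the left panel is IL-1β against control in the first batch (5 lines), the right panel IL-1β against control and IL-1β with IL1Ra against IL-1β in the second (3 lines), which share the IL-1β libraries and so tend to mirror each other. Filled points were called and open points were not; 4 points are filled, all at left.

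Several transcription factors make the same order visible at high counts. IRF1, which is induced by interferon gamma and also through NF-κB, held 8232, 4305, 1410, 1013 and 912 normalised counts in the controls and 4177, 9022, 18627, 2669 and 1383 with IL-1β. IRF7, which amplifies type I interferon production, held 1155, 621, 231, 167 and 134 in the controls and 400, 1545, 2075, 293 and 221 with IL-1β. In both genes 4 lines were higher with IL-1β and line 1 was lower. STAT2 and IRF9, which act together in the type I interferon response, moved over a smaller range, from 2074 to 5227 and from 1520 to 3577 normalised counts in the controls.

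In the ISG15 system, ISG15 with IL-1β held 1644, 7630, 8821, 1049 and 837 normalised counts, less than control in line 1 and more in the other 4. HERC6, of the HERC family of ubiquitin-like ligases, went from 599 to 82.6 in line 1 and from 20.2 to 659 in line 3. USP18, which removes ISG15 and dampens the interferon receptor, went from 99.8 to 48.7 in line 1 and from 26.3 to 296 in line 3. HERC5 did not exceed 107 normalised counts in any of these 10 libraries. TRIM25, the ubiquitin ligase that acts on RIG-I, stayed between 1166 and 3149.

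Among the effectors, the synthetases OAS1, OAS2 and OAS3, which make the short RNA-like activator of RNase L, were all lower with IL-1β in line 1 and higher in line 3. OAS2 went from 4409 to 1276 normalised counts in line 1 and from 1340 to 4894 in line 3. MX1, a GTPase that traps viral nucleocapsids, went from 676 to 320 in line 1 and from 440 to 1385 in line 3, and MX2 from 134 to 44.7 and from 14.0 to 260. EIF2AK2 (PKR, which halts translation) and IFIT5 stayed within 280 to 618 and 1609 to 3350 normalised counts over the 10 libraries.

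CMPK2, a mitochondrial nucleotide kinase, was lower in lines 1, 4 and 5, nearly level in line 2 and higher in line 3, at 455 and then 232 in line 1 and 217 and then 361 in line 3. DTX3L went from 1668 to 662 in line 1 and from 779 to 2433 in line 3. IFI44 went from 1464 to 348 normalised counts in line 1 and from 173 to 2246 in line 3, IFI44L from 390 to 121 and from 158 to 771, and SAMD9L, a translation inhibitor, from 1600 to 538 and from 78.0 to 2073. SAMD9 went from 1251 to 350 and from 348 to 2356. XAF1, a partner of the apoptosis inhibitor XIAP, went from 141 to 26.5 in line 1 and was listed at 0 in the control of line 3 beside 155 with IL-1β.

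Some members sit side by side in the genome. In the gene order of the RefSeq annotation of another horse assembly, TB-T2T, 33 of the 36 members were found by symbol and 15 of them form 7 runs of adjacent genes, such as OAS1 with OAS2 and OAS3, MX1 with MX2, and RSAD2 with CMPK2. Of the last pair, RSAD2 was called higher and CMPK2 had a fitted change below 0.

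The same comparison in the second batch, with 3 further lines, gave no call among the 35 members. In that comparison limma called 0.341% of 16705 genes without the block and 5.18% with the line as a block, and 0 members in both fits. At an unadjusted p under 0.05 there were 0 members without the block and 4 with it. The fitted change was below 0 for 30 of 35 members, and the median was -0.96 against -0.01 over all genes. Without line 8 the median was 0.27, in a fit that called 0 of 16705 genes. Without line 6 the median was -1.71, with PARP14 (-2.16) and ZC3HAV1 (-1.99) called lower. That fit called 189 of all genes higher and 135 lower. No member had groups that did not overlap, against 16.4% of all genes.

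The 3 lines went separate ways. In line 6, low as control, 31 of 35 members were higher with IL-1β, 17 by at least 2-fold, with a median log2 ratio of 0.97. In line 7, 27 members were lower, with a median of -0.48. In line 8, the highest control line, all 35 members were lower, 32 of them by at least 2-fold, with a median of -2.87. Each ratio sets 1 library against 1 other, and the control library that ranks a line also enters its ratio. A high control with lower values, or a low control with higher ones, is thus not separate evidence. IFIT5, MX1, PARP14 and SAMD9 were the only members lower in all 3 lines, and none was higher in all 3, against 18.9% and 19.1% of all genes. The members' SD between lines had a median of 0.95 with IL-1β and 1.90 in the controls, while over all genes it was 0.50 and 0.37.

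The 4 genes called in the first batch did not pass here. DDX58 held 750, 5036 and 8582 normalised counts in the controls of lines 6, 7 and 8 and 2127, 7516 and 5027 with IL-1β, so that lines 6 and 7 were higher and line 8 lower, with a fitted change of 0.44 ± 1.31 (limma, adjusted p = 0.956). DHX58 held 25.9, 566 and 1358 in the controls and 182, 894 and 412 with IL-1β, with 0.57 ± 1.72 (limma, adjusted p = 0.957). UBE2L6 held 259, 2636 and 3686 and then 598, 5724 and 2296, with 0.55 ± 1.32 (limma, adjusted p = 0.943).

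RSAD2 held 33.4, 388 and 644 normalised counts in the controls and 584, 352 and 283 with IL-1β, higher in line 6 and lower in lines 7 and 8, with 0.92 ± 1.15 (limma, adjusted p = 0.862). With the line as a block the errors were 0.59 for DDX58, 0.79 for DHX58, 0.35 for UBE2L6 and 0.94 for RSAD2, at the same changes. None of them was called in that fit either. In both fits the errors were larger than those of the first batch, and the difference between the batches in these genes was not tested. BST2 went from 3.04 to 105 normalised counts in line 6 and from 1942 to 265 in line 8. SAMD9 had the lowest fitted change of the list, -2.05 ± 1.38 (limma, adjusted p = 0.668), from control levels of 221, 1597 and 3621 to 180, 367 and 270 with IL-1β.

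The gels given IL1Ra together with IL-1β were used to ask whether blocking the IL-1 receptor kept the genes at control levels. Against control, no member was called with IL-1β and IL1Ra together, in a comparison where 0.0120% of all genes were called without the block and 0.251% with it. At an unadjusted p under 0.05 there were 0 members without the block and 1 with it. The fitted change was above 0 for 30 of 35 members with a median of 0.30, against 0.01 over all genes, and the groups overlapped for every member, against 11.8% of all genes whose groups did not. Without line 7 the median was -0.28 and only 10 of 35 changes were above 0.

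Within the lines, all 35 members were higher than control in line 7, 26 by at least 2-fold, with a median log2 ratio of 1.67. In line 8, 32 were lower, with a median of -0.83, and in line 6 the median was 0.30 with 27 higher. DDX58, IRF1 and RSAD2 were higher than control in all 3 lines, 8.57% of the members beside 20.1% of all genes. No member was lower in all 3, against 19.0% of all genes. DDX58 held 1271, 38315 and 12408 normalised counts with IL1Ra in lines 6, 7 and 8. IRF1 held 548, 9938 and 14697 in the controls and 895, 31344 and 18094 with IL1Ra. RSAD2 held 261, 2615 and 783 with IL1Ra. The fitted changes of RSAD2 and DDX58, 1.99 ± 1.15 and 1.41 ± 1.31, did not pass the test.

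Against IL-1β alone, the fitted change was above 0 for 35 of 35 members, with a median of 1.28 against 0.01 over all genes. None was called by limma in either fit, and 0.00% of all genes were called without the block and 0.00599% with it. At an unadjusted p under 0.05 there were 0 members without the block and 4 with it. The median was 2.18 without line 6, 0.81 without line 7 and 0.80 without line 8. This comparison and that of IL-1β with control share the 3 IL-1β libraries, so opposite signs in them are not separate evidence.

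The lines again parted. In lines 7 and 8, 34 and 35 members were higher with IL1Ra than with IL-1β alone, 32 and 29 by at least 2-fold, with median log2 ratios of 2.12 and 2.17. In line 6, 30 members were lower, with a median of -0.55. CMPK2, IFIT5, PARP14, PARP9 and ZC3HAV1 were higher in all 3 lines, 14.3% of the members beside 15.6% of all genes. ZC3HAV1 was the only member whose groups did not overlap, with 586, 450 and 388 normalised counts in lines 6 to 8 with IL-1β and 590, 2126 and 1429 with IL1Ra, in a comparison where 6.47% of all genes did not overlap. For line 6 the 2 values were nearly equal.

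With IL1Ra the order of the lines was that of line 7, then 8, then 6 for all 35 members. ISG15 held 282, 16306 and 2420 normalised counts in lines 6, 7 and 8, beside 797, 4195 and 441 with IL-1β alone. In line 7 it thus stood above its own control of 5849, in line 8 between IL-1β and control, and in line 6 near its control of 310. SAMD9 held 155, 6142 and 1766 with IL1Ra, and its change from IL-1β alone was 2.18 ± 1.38, the largest of the list and short of the test.

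Few reads were assigned to the interferons themselves. All 10 first-batch libraries listed IFNB1, IFNK and IFNA1 at 0, and their highest value in the second batch was 1.93 normalised counts. IFNE did not exceed 19.3 in any library. IFNG, which encodes interferon gamma, held 7.78, 1.71, 0, 0 and 0 normalised counts in the controls of lines 1 to 5 and 2.48, 7.70, 2.07, 0 and 0 with IL-1β. In lines 6, 7 and 8 it held 0, 42.8 and 25.7 as control, 0, 13.6 and 10.8 with IL-1β, and 0, 607 and 53.9 with IL1Ra. Among the controls, IFNG reads were thus found in lines 1, 2, 7 and 8, which had high levels of the members, at no more than 7.78 in the first batch. With IL-1β the order differed. Line 3, the highest for 30 of 35 members, held 2.07, beside 2.48 in line 1, where 31 members were lower than control. The library with the most IFNG was the IL1Ra library of line 7. The part of IFNG in the members' levels was not tested. The remaining 5 listed ligands were not under their names and are not analysed here.

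Of 17 receptor and signalling genes tested in the first batch, 2 rose and 0 fell without the block. Over all genes tested, 4.91% were called higher and 12.8% in either direction, and these shares were not tested against each other. IFNAR2, a chain of the type I interferon receptor, went from 1581, 1427, 3417, 1891 and 1629 normalised counts to 4405, 4940, 9897, 6540 and 5055, a change of 1.65 ± 0.27 (limma, adjusted p = 0.00182). IFNGR2, a chain of the interferon gamma receptor, went from 747, 717, 1743, 992 and 1113 to 3384, 2885, 4045, 3638 and 3152, a change of 1.75 ± 0.22 (limma, adjusted p = 0.000419). Both were higher in 5 of 5 lines, line 1 included.

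Over lines 6 to 8 IFNAR2 went from 1164, 1170 and 1274 normalised counts to 4075, 2627 and 3467, and was again called (1.47 ± 0.19, limma, adjusted p = 0.0290). That call was lost without line 7 or 8 (1.63 and 1.49), in fits that called 0 of 16705 genes. It was also lost with libraries scaled to equal sums (1.29), with quantile normalisation (1.44), without the variance trend, and with the 2 conditions fitted alone. IFNGR2 went from 1099, 563 and 529 to 2895, 2531 and 3127, with an adjusted p of 0.06 without the block and 0.00813 with it (limma). SOCS1, an inhibitor of interferon receptor signalling, had a fitted change of -1.45 in the first batch with limma adjusted p = 0.0558 without the block and 0.0268 with it.

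Of the 10 genes of nucleic acid sensing tested in the first batch, 2 rose and 2 fell, beside 12.8% of all genes called in either direction. IKBKE, a kinase that activates IRF3 and IRF7, went from between 1069 and 1577 to between 4035 and 5986 normalised counts with a change of 2.04 ± 0.14 (limma, adjusted p = 1.26e-05), and TICAM1, the adaptor of TLR3, changed by 1.65 ± 0.18 (limma, adjusted p = 0.000204). TMEM173, which encodes STING, the adaptor of DNA sensing, fell by 1.2 on the log2 scale (limma, adjusted p = 0.0174), a call lost without line 1, 4 or 5 (-0.86, -1.18 and -1.29). SAMHD1, which depletes nucleotides, fell by 1.75 (limma, adjusted p = 0.000988). IKBKE and TICAM1 had fitted changes in the second batch of 2.05 and 1.64 with limma adjusted p = 0.06 and 0.0844 without the block and 0.00214 and 0.00446 with it. With IL1Ra against control, IKBKE alone of the pathway lists was called, with the block (1.25, limma, adjusted p = 0.0267).

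Of a list of 40 other interferon-responsive genes, 27 were rows of the tables under their names and the remaining 13 are not analysed here. The list gave 0 calls among 25 tested in the first batch without the block, beside 12.8% of all genes called in either direction. Its fitted changes were above 0 for 20 genes, with a median of 0.80. IFI6 was called with the block, at 1.10 (limma, adjusted p = 0.00996). For IL-1β in the second batch 23 of 27 changes were below 0, with a median of -0.44, and TNFSF10, the death ligand TRAIL, was called lower with the block (-2.48, limma, adjusted p = 0.0399). Lines 1 and 2 lay above lines 3, 4 and 5 in the controls for 21 of these 27 genes, and lines 7 and 8 above line 6 for 27 of 27.

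Bulk libraries cannot tell a change in RNA per cell from a change in the share of a cell type, so markers were read beside these results. The tenocyte genes SCX, MKX, COL1A1, COL1A2, COMP and THBS4 fell with IL-1β in the first batch, 6 of 7 tested, and TNMD was at 0 in all libraries but 1. The other tested marker, DCN, a small proteoglycan of the collagen matrix, was higher with IL-1β in 5 of 5 lines, at 44076 to 93120 normalised counts in the controls and 67408 to 132486 with IL-1β, and did not pass the test (0.73 ± 0.26, limma, adjusted p = 0.0626 without the block and 0.00725 with it, under the size a call needed). The tenocyte markers also differed between control lines, and no order of the lines is read from them here. In the first-batch controls COMP, a matrix protein of tendon and cartilage, ran from 5057 to 104386 normalised counts. MKX, a tendon transcription factor, ran from 792 to 4654, SCX from 822 to 2110 and THBS4 from 6.97 to 191. COL1A1 ran from 453618 to 875669 and COL1A2 from 487238 to 824636. In the second-batch controls the ranges were 131 to 51392 for COMP, 11.5 to 4059 for MKX and 105 to 4720 for SCX. They were 14.1 to 632 for THBS4, 87792 to 332642 for COL1A1, 106825 to 400306 for COL1A2 and 29947 to 55627 for DCN. The part of cell identity in the members' levels was not tested.

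Markers of blood cells gave little signal. CD79A was listed at 0 in every library, PTPRC, which marks leukocytes, did not exceed 6.46 normalised counts, CD3E and CSF1R did not exceed 2.11, and the endothelial markers summed to between 15.2 and 91.0. The 10 leukocyte markers summed to between 372 and 2377 in the first-batch controls and between 553 and 3982 with IL-1β, and in the second batch to between 528 and 1659, 975 and 3480, and 1017 and 2361 in control, IL-1β and IL1Ra libraries. CD68, a lysosomal protein, rose with IL-1β in the first batch (2.64 ± 0.47, limma, adjusted p = 0.00265), while CD14 was highest in line 5 in the first batch. Over lines 6, 7 and 8 CD14 held 1195, 0 and 0 normalised counts in the controls, 1158, 1262 and 0 with IL-1β, and 1482, 645 and 0 with IL1Ra. Of the 5 markers of plasmacytoid dendritic cells, 2 were in the tables.

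The muscle gene DES and the epithelial gene CDH1 fell with IL-1β in the first batch from levels that all 5 control lines shared. They did not stand for their lists. In those controls the muscle markers MYOD1, MYOG and PAX7 were at 0, and ACTA1 did not exceed 66.6 normalised counts. The epithelial marker EPCAM was at 0 there, and KRT8 and KRT18 did not exceed 7.44 and 3.70. Reads of MYOG were seen in line 8, at 80.4, 13.5 and 18.9 normalised counts in control, IL-1β and IL1Ra libraries, and were at most 2.08 elsewhere. Whether muscle or epithelial cells were present, and what part they had in the levels of the interferon-stimulated genes, was not tested.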

How the data were processed

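Each library was an mRNA library of 1 tenocyte line in 1 condition at day 14, sequenced in pairs of reads. The authors quantified reads against a horse transcriptome with Salmon and deposited 2 tables of normalised counts from DESeq2 1.36 in R 4.2.1, per the labels and the methods. The deposited signal is thus a count divided by a size factor, not a raw count. Of values under 20 reads, 43.2 to 67.1% were whole reads within 0.05, so the reads behind them could not be restored and count models were left out. No column was left unmapped (0), and 0 pairs of libraries were identical.

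Here log2(normalised count + 1) was fitted per batch with limma 3.58.1 (R 4.3.3, empirical Bayes with trend), 3 conditions together in the second batch, without a block, and p-values were adjusted by Benjamini-Hochberg over all genes tested. Fold changes are on this scale and understate those of low genes. The lines pair the libraries by donor, and the deviations of same-line libraries from their group means had correlations between 0.35 and 0.58 (first batch) or 0.54 and 0.79 (second batch). A fit with the line as a replicate block was the alternative, beside other pseudocounts, filters and scalings and leaving out each line.

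The members and lists were chosen with earlier results of these data known, and lists carry no test of their own. Values in every library are given for each called member and for the 3 highest and 3 lowest of the other changes in the first batch. ISG15, SAMD9, ADAR, IFIH1, IRF1 and the other members with library values were added after their values were seen. Lines are biological replicates of 1 donor each, and depth before normalisation is unknown. Python 3.11.15, pandas 2.3.3 and matplotlib 3.10.9 made the summaries and plots.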

Additional observations from a re-analysis of the deposited data

Results flagged for a closer look

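Of 70 groups of 5 libraries (35 members in the control and in the IL-1β libraries of the first batch), 2 had a library far from the other 4, where chance gives about 1 in 20 groups. The gap to the nearest library, as a share of the group's whole range on the log2 scale, was 0.838 for IFIT5 in the controls, where line 1 was high at 3350 normalised counts beside 1609 to 1812 in the others. It was 0.747 for RSAD2 in the controls, where line 3 was low at 29.3 beside 177 to 322. The critical value was 0.71.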

How the results depend on the processing

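The count of members called in the first batch, 4, was 3 with no filter on low values and 3 without the variance trend, RSAD2 being lost in both, and it was 5 on the adjusted p alone, and it ran from 1 to 4 as each line was left out. In the second batch, with IL-1β against control, it ran from 0 to 2 as each line was left out. The 2 were called without line 6, in a fit that called 189 of 16705 genes higher and 135 lower. Leaving out either of the other lines gave fits that called 0 of 16705 genes, so the 0 there cannot set the members apart. The count of called members was 0 in every other setting. For IL-1β with IL1Ra it was 0 in every setting run, in both comparisons. With the tenocyte line as a replicate block the counts were 4, 0, 0 and 0 for the 4 comparisons, and the block changed no call of a member.

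As each line was left out, the median of the members ran from 0.07 to 0.93 in the first batch, from -1.71 to 0.27 for IL-1β in the second, from -0.28 to 0.91 for IL1Ra against control and from 0.80 to 2.18 for IL1Ra against IL-1β. The fitted change crossed 0 with IL-1β in the second batch for DDX58 (-0.10 to 1.04), DHX58 (-0.53 to 1.71) and RSAD2 (-0.66 to 1.97), and for IL1Ra against IL-1β for DHX58 (-0.27 to 1.34) and UBE2L6 (-0.24 to 0.26). Over all members, 21 of 35 changed sign without line 8 and 20 of 35 in IL1Ra against control without line 7, and 10 of 35 in the first batch without line 3. Without line 6, IFNGR2 (2.36), IKBKE (2.07), TICAM1 (1.56) and TNFSF10 (-3.31) were called with IL-1β in the second batch, and SOCS1 (-1.83) without line 3 and IFI6 (1.21) without line 4 in the first.

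Scaling libraries to equal sums moved the median of all genes by -0.19 for IL-1β in the second batch and by 0.11 for IL1Ra against IL-1β. The members' medians became -1.14 and 1.38, or -0.95 and 1.27 relative to all genes, and the calls over all genes for IL-1β in the second batch went from 45 higher and 12 lower to 35 and 22. A filter at 50 normalised counts left 30 members in the first batch with a median of 0.43. The cause of these dependences was not tested, and depth before normalisation is unknown.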

Other observations

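The genes CXCL9, CIITA and B2M, which are not among the members, are given here and were chosen after their values were seen. Of the 27 other interferon-responsive genes in the tables, 25 were lower with IL-1β in line 1 and 27 in line 8, and the IL1Ra library of line 7 was the highest of the 9 second-batch libraries for 26. CXCL9, a chemokine that draws T cells and is typical of interferon gamma, held 6310, 544, 2.53, 7.02 and 1.98 normalised counts in the controls of lines 1 to 5 and 1814, 1815, 1624, 336 and 95 with IL-1β. For lines 6, 7 and 8 it held 0, 16528 and 27223 as control, 102, 6507 and 4257 with IL-1β, and 0, 476959 and 96606 with IL1Ra. CXCL9 was thus listed at 0 in line 6 unless IL-1β was given alone.

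CIITA, the regulator of class II antigen presentation, went the other way from most members in line 2. It held 1024, 167, 0.96, 4.94 and 0 normalised counts in the controls of lines 1 to 5 and 10.5, 33.7, 18.2, 4.10 and 0 with IL-1β. Its values in lines 7 and 8 were 1261 and 1784 as control, 12.9 and 16.8 with IL-1β, and 1804 and 873 with IL1Ra. B2M, the light chain of class I molecules, held 91218, 27930, 16197, 7001 and 8071 in the first-batch controls and 34364, 47528, 103190, 12843 and 17113 with IL-1β, lower in line 1 and higher in the other 4 lines, as for ISG15. None of these 3 genes was called in any of the 4 comparisons, with or without the line as a block.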
